A study of Homo sapiens with 2 samples.

Results

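The inflammatory and secretory genes driven by NF-kB were examined after knockdown of BCLAF1-L in RKO, an established line of human colon cancer cells. The set held 10 genes chosen for their place in this pathway: the chemokines CXCL1, CXCL2, CXCL3, CXCL8 and CCL20, the cytokine IL6, the mitochondrial superoxide dismutase SOD2, the inhibitors NFKBIA and TNFAIP3, and the survival protein BIRC3. A gene was followed through every probe set whose only gene symbol in the platform annotation was its own. This gave 14 probe sets for 9 of the 10 genes, out of 41097 such probe sets for 19775 genes on the array. No probe set carried BIRC3 as its only symbol, so its level was not analysed here.

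The study compared 2 cultures, each hybridised to 1 array. One culture (sh-BCLAF1-L) carried a retroviral hairpin against the L form of BCLAF1, and the other (sh-Luci) carried a hairpin against luciferase. Both cultures were RKO cells infected with retrovirus and selected with puromycin into stable lines, and the labels name no inflammatory stimulus for either. BCLAF1 was represented by 1 hairpin, so other effects of that hairpin cannot be told apart from lower BCLAF1. With 1 array per group there was no replicate, and no p-value or SD between cultures is given.

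NF-kB is a family of dimeric transcription factors that are held inactive in the cytoplasm by IkB proteins. Signals from cytokine and pattern recognition receptors activate the IKK kinase complex, which marks IkB for degradation and lets the dimers reach kB motifs in promoters. The target genes include chemokines that attract neutrophils and lymphocytes, the cytokine IL6, survival proteins, and inhibitors that shut the pathway off again. In tumour and senescent cells the same genes make up much of the secreted inflammatory output. BCLAF1, a nuclear protein of transcription and RNA processing, has been tied to NF-kB driven secretory genes, and the comparison asks whether their transcripts differ between cells with the 2 hairpins.

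Promoter sequence is shown for 7 members because it displays the kB motif that most, but not all, of the set carries. RefSeq promoters (GRCh38.p14, 250 bases before to 50 after the gene start) were searched on both strands for the NF-kB consensus motif and for its shorter relative GGAATTTCC. The consensus motif was present in promoters of 8 of the 10 members, or 80%, against 5.91% of the 35116 promoters in the table. A member counted if any of its promoters held a motif, whereas the share over the table is one of promoters. The members were chosen for their place in this pathway, so a higher share among them is no independent result. GGAATTTCC, which can lie inside the consensus motif, was present in 5 of 10 members and in 0.461% of all promoters. Each sequence below runs 5′ to 3′ on the gene's own strand from 110 to 46 bases before the start, and capitals mark matches to either motif, on either strand.
CXCL1: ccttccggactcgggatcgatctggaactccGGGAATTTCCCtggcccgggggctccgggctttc
CXCL2: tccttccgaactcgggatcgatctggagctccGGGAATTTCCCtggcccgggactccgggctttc
CXCL3: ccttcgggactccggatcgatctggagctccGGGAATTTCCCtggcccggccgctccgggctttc
CXCL8: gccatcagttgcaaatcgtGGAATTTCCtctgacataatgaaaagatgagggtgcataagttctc
IL6: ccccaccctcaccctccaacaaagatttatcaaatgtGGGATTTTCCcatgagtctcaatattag
NFKBIA: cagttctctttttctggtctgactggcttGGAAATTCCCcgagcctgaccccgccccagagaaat
TNFAIP3: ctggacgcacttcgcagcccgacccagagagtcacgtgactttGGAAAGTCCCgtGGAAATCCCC
The stretches lie at chr4:73869283-73869347 on the plus strand for CXCL1, at chr4:74099241-74099305 on the minus strand for CXCL2 and at chr4:74038735-74038799 on the minus strand for CXCL3. Those of CXCL8 and IL6 lie at chr4:73740459-73740523 and chr7:22727090-22727154, both on the plus strand. Those of NFKBIA and TNFAIP3 lie at chr14:35404795-35404859 on the minus strand and chr6:137867149-137867213 on the plus strand.

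The 3 CXCL promoters at the top carried an identical motif run that began 79 bases before the start in CXCL1 and CXCL3 and 78 bases before it in CXCL2. Over the whole window, CXCL1 shared 82.5% of aligned positions with CXCL3 and 71.9% with CXCL2, against 45.2% with CXCL8. The 4 genes lie in 1 cluster on chromosome 4, in which CXCL8 and CXCL2 are the ends of a run of 9 neighbouring protein-coding genes. CXCL8 lacked the consensus motif and held GGAATTTCC 91 bases before its start, together with a match to the AP-1 motif TGANTCA, which reads the same on both strands, 137 bases before it. TGANTCA was found in the promoter of 1 of the 10 members and in 7.71% of all promoters. CCL20 held a consensus match 79 bases before its start and BIRC3 held 2, the nearer of them 135 bases before it. The 4 SOD2 promoters in the table held none of these motifs in this window. A match is a description of letters and does not show binding.

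The detected members lay on both sides of the control in the knockdown, by at most 1.31-fold. In RNA of a whole culture, fewer cells that express a gene and less RNA per cell cannot be told apart. Each gene was represented by its brightest probe set, judged by the mean of both arrays on the log2 scale. It counted as detected at a mean intensity of 63.7 or more, the 40th percentile over the whole array. By this measure 5 of the 9 measured members were detected, namely CXCL1, CXCL2, NFKBIA, TNFAIP3 and SOD2, and the brightest probe sets of CXCL3, CXCL8, CCL20 and IL6 lay below it. Reaching this intensity does not by itself show that a gene is expressed. With the cut at the 60th percentile 3 members were detected, and CXCL1 and CXCL2 were not among them. Differences are on the scale of log2(intensity + 1), sh-BCLAF1-L minus sh-Luci, so a positive value means higher with the knockdown hairpin. No detected member reached 1.5-fold in either direction. Among all 14507 detected genes, 0.434% reached it upward and 0.2% downward, so among 5 genes a count of 0 lies near the background. The detected members had 2 positive and 3 negative differences and a median of -0.0009. All detected genes had a median of 0.019, with 55.0% positive.

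**Figure D1:**
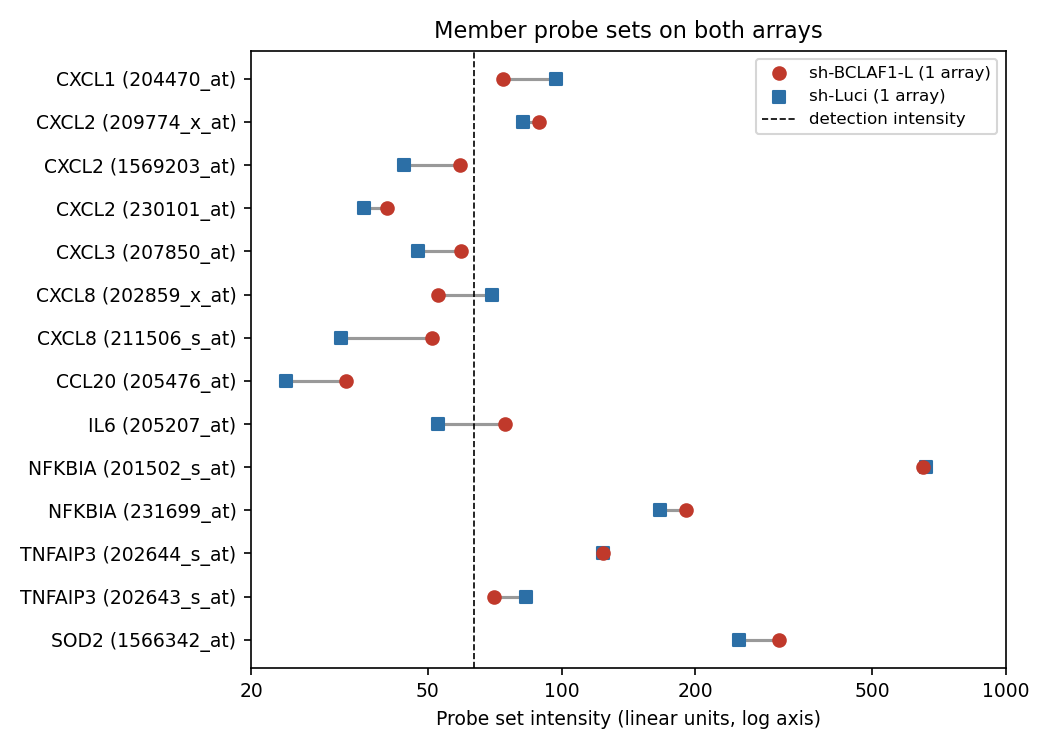
Intensity of each of the 14 member probe sets (rows, log axis) in the sh-BCLAF1-L array (circles) and the sh-Luci array (squares), with the detection intensity of 63.7 as a dashed line. NFKBIA and TNFAIP3 have nearly coinciding symbols on their brightest probe sets, CXCL1 lies further left with the knockdown hairpin, and 5 probe sets lie left of the line on both arrays.

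The CXC chemokines attract neutrophils through the receptors CXCR1 and CXCR2. Of the 4 measured, 2 were detected, and their differences had opposite signs on this pair of arrays. That of CXCL2 lay within the central 95% of probe sets of like brightness. CXCL1 read 73.9 in sh-BCLAF1-L cells and 97.1 in sh-Luci cells on its only probe set. This was the largest difference among the detected members, at -0.39 or 1.31-fold lower, and 169 of the 14507 detected genes had a lower one. CXCL1 was the only detected member below -0.32, the lowest of the thresholds tried, and 2.21% of detected genes were at or below it. CXCL2 read 88.9 in sh-BCLAF1-L cells and 82.1 in sh-Luci cells on its brightest probe set, a difference of 0.11. Its 2 dimmer probe sets read 59.1 in sh-BCLAF1-L cells against 44.2 in sh-Luci cells, and 40.4 against 35.9. CXCL2 was thus higher with the knockdown hairpin on all 3 probe sets, by 0.11 to 0.41, but only the brightest was above the detection intensity.

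CXCL3 read 59.5 in sh-BCLAF1-L cells and 47.6 in sh-Luci cells, a difference of 0.32 that was below detection on both arrays. CXCL8, the neutrophil attractant interleukin 8, had 2 probe sets that pointed in opposite ways. The brighter read 52.7 in sh-BCLAF1-L cells and 69.6 in sh-Luci cells, a difference of -0.39. The dimmer read 51.2 in sh-BCLAF1-L cells and 31.9 in sh-Luci cells, a difference of 0.67. That 1.59-fold difference was the only one past 1.5-fold among the 14 member probe sets. It lay below detection on both arrays, where 3.26% of all undetected probe sets with 1 symbol were at least 1.5-fold higher, against 0.465% of detected ones. With probe sets in conflict, no direction is given for CXCL8. CXCL1, CXCL2 and CXCL3 are close relatives, and whether a probe set reads more than 1 of them was not tested.

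CCL20, which attracts CCR6-bearing lymphocytes and dendritic cells, read 32.8 in sh-BCLAF1-L cells and 23.9 in sh-Luci cells on its only probe set. The difference was 0.44, and both values were well under the detection intensity. IL6, a cytokine of the acute phase response that signals through IL6R and IL6ST, read 74.7 in sh-BCLAF1-L cells and 52.7 in sh-Luci cells. Its mean of 62.8 fell just short of 63.7. The knockdown value lay above that intensity and the control value below it. At 0.50, or 1.41-fold higher, IL6 had the largest difference of the 9 genes on brightest probe sets and did not reach 1.5-fold.

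The pathway's own inhibitors differed little. NFKBIA, the IkB protein that holds NF-kB in the cytoplasm and is itself a target gene, read 652 in sh-BCLAF1-L cells and 662 in sh-Luci cells, a difference of -0.022. Its second probe set read 191 in sh-BCLAF1-L cells and 167 in sh-Luci cells, a difference of 0.19. TNFAIP3, the ubiquitin-editing enzyme A20 that limits signalling upstream of IKK, read 123.9 in sh-BCLAF1-L cells and 124.0 in sh-Luci cells, a difference of -0.0009. Its dimmer probe set read 70.3 in sh-BCLAF1-L cells and 83.4 in sh-Luci cells, a difference of -0.24. Each of these 4 values lay within the central 95% of probe sets of like brightness.

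SOD2, which converts mitochondrial superoxide to hydrogen peroxide, read 309 in sh-BCLAF1-L cells and 251 in sh-Luci cells on the only probe set assigned to it alone. The difference was 0.30, or 1.23-fold higher. A further 4 probe sets carry the symbols SOD2 and SOD2-OT1 together and were therefore not members. The brightest of them read 537 in sh-BCLAF1-L cells and 574 in sh-Luci cells, and the differences of all 4 ran from -0.31 to 0.07. The probe set assigned to SOD2 alone had a positive difference, whereas 3 of the 4 shared ones had negative differences. The dimmest shared one, among the negative, read 28.4 in sh-BCLAF1-L cells and 33.0 in sh-Luci cells, below detection on both arrays. The positive sign counted for SOD2 is thus that of 1 probe set.

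The spread of differences widened in dim probe sets, as the plot of differences against intensity shows. The SD over probe sets with 1 symbol was 0.18 for 26452 detected ones and 0.29 for 14645 undetected ones. When all probe sets were ordered by mean intensity and divided into 10 equal bands, 4 of the 14 member probe sets lay outside the central 95% of their band. These were CXCL1 at -0.39 (band -0.36 to 0.42), the CXCL8 probe sets at -0.39 (band -0.38 to 0.47) and 0.67 (band -0.41 to 0.48), and IL6 at 0.50 (band -0.38 to 0.47). Of the 7 undetected member probe sets, 6 had positive differences, with a median of 0.41. The 14645 undetected probe sets of all genes had a median of 0.040, with 56.4% positive. The detected member probe sets, also 7, had 3 positive and 4 negative differences.

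**Figure D2:**
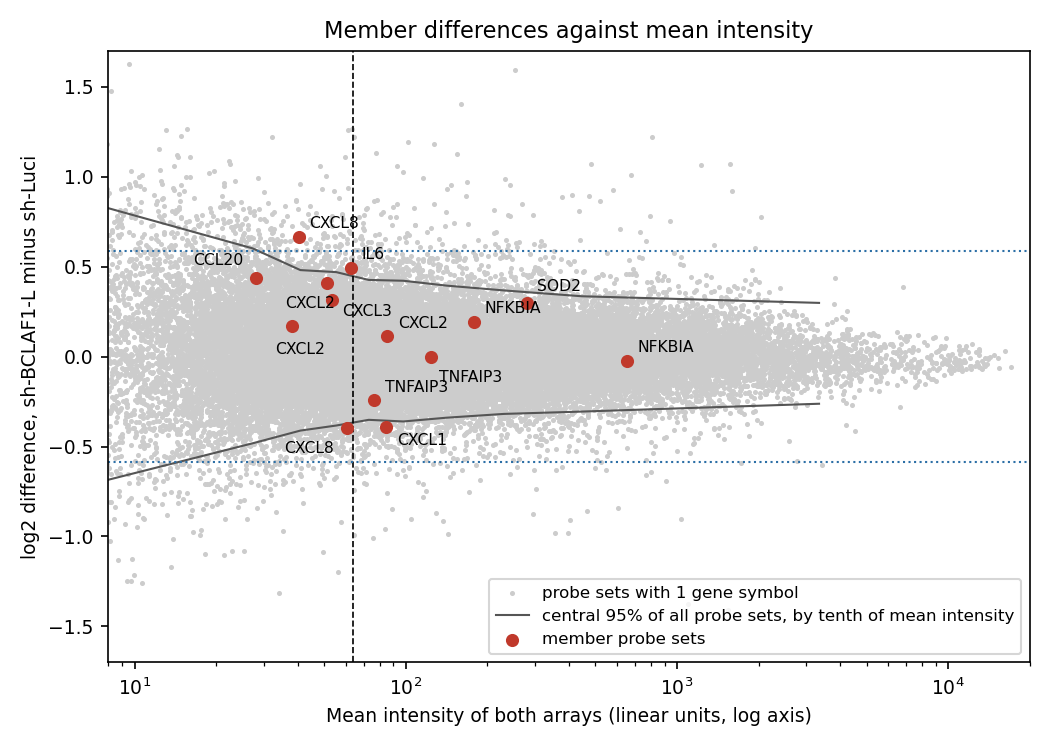
Log2 difference (sh-BCLAF1-L minus sh-Luci) against the mean intensity of both arrays (log axis) for member probe sets (red) and all probe sets with 1 gene symbol that fall within the axes (grey). Solid lines enclose the central 95% of each band of mean intensity, dotted lines mark 1.5-fold and the dashed line the detection intensity of 63.7. CXCL1, IL6 and both CXCL8 probe sets lie outside the solid lines, and a dim CXCL8 probe set lies above the upper dotted line.

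Lists of genes related to the members were chosen with earlier results of these data known. They hold NF-kB pathway and target genes, receptors of the secreted members and other secretory genes of senescent cells. The 8 lists held 107 genes in all, of which 79 were detected. In the knockdown 39 were higher and 40 lower, with a median difference of -0.0019, where 55.0% of all detected genes were higher. Of the 79 genes 2 reached 1.5-fold upward, against 0.434% of all detected genes. Both of these were matrix metalloproteinases of the list of secretory genes of senescent cells, and none of the 79 was 1.5-fold lower, against 0.2% of all detected genes.

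The 5 NF-kB subunits were all detected and none reached 1.5-fold. RELA, the transactivating p65 subunit, read 484 in sh-BCLAF1-L cells and 511 in sh-Luci cells, a difference of -0.078. NFKB1, which encodes p105 and its product p50, read 267 in sh-BCLAF1-L cells and 312 in sh-Luci cells, a difference of -0.22. NFKB2, the p100 and p52 gene, differed by -0.21 on its brightest probe set, with its 3 probe sets between -0.21 and 0.27. Only the brightest was detected. RELB, the usual partner of NFKB2, differed by 0.11. REL differed by 0.22 on its brightest probe set, with its 5 probe sets between -0.21 and 0.22.

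No detected gene of the lists that carry the signal reached 1.5-fold. The IKK complex with its kinases and adaptors had 12 higher and 8 lower genes of 20 detected, with a median of 0.057. CHUK, the IKK alpha kinase, read 473 in sh-BCLAF1-L cells and 571 in sh-Luci cells, a difference of -0.27. The adaptor TRAF5 differed by 0.31 and the paracaspase MALT1 by 0.21. Among 9 detected upstream receptors, 6 were lower and 3 higher, with a median of -0.094. The TNF receptor TNFRSF1A read 382 in sh-BCLAF1-L cells and 462 in sh-Luci cells, a difference of -0.27. The endotoxin receptor TLR4 differed by -0.23 and TNFRSF12A, the receptor of the cytokine TWEAK, by -0.19. TLR4 read 62.4 in sh-BCLAF1-L cells, below the detection intensity, and 73.4 in sh-Luci cells. Of its 4 probe sets 1 was detected, and their differences ran from -0.23 to 0.36.

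On their brightest probe sets, the other inhibitors were close to 0. Of 4 detected IkB proteins 3 were lower, with a median of -0.059. NFKBIB differed by 0.16, NFKBIE by -0.080 and NFKBID by -0.061. The 3 probe sets of NFKBIB, all detected, ran from -0.32 to 0.16. Those of NFKBID, also 3 and all detected, ran from -0.061 to 0.15, and 2 of them were higher. The other negative regulators had 3 higher and 3 lower genes, with a median of 0.032. The deubiquitinase CYLD differed by 0.14, TAX1BP1, a partner of A20, by 0.15, and N4BP1 by -0.12. Of their detected probe sets, 3 of 6 were higher for CYLD, 3 of 3 for TAX1BP1 and 1 of 4 for N4BP1. Among receptors of the secreted members, 3 of 5 were detected. CXCR1 differed by 0.16, the shared signalling chain IL6ST by 0.066 and IL6R by 0.035. Of their detected probe sets, 2 of 5 were higher for IL6ST and 1 of 2 for IL6R.

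Other NF-kB target genes had 6 higher and 11 lower of 17 detected, with a median of -0.057, and none reached 1.5-fold. PLAU, the urokinase plasminogen activator, read 235 in sh-BCLAF1-L cells and 326 in sh-Luci cells, a difference of -0.47. BCL2A1, an anti-apoptotic BCL2 relative, read 1048 in sh-BCLAF1-L cells and 1410 in sh-Luci cells, a difference of -0.43. The cytokine IL32 read 205 in sh-BCLAF1-L cells and 260 in sh-Luci cells, a difference of -0.34. These are the 3 largest differences among the detected genes of that list, and all are negative. The second probe set of PLAU, also detected, differed by -0.14.

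The list of other secretory genes of senescent cells had 9 higher and 6 lower of 15 detected, with a median of 0.023. MMP1, the interstitial collagenase, read 440 in sh-BCLAF1-L cells and 145 in sh-Luci cells, 3.01-fold higher. MMP10, stromelysin 2, read 139 in sh-BCLAF1-L cells and 91.0 in sh-Luci cells, 1.53-fold higher. GDF15, a stress-induced cytokine of the TGF-beta family, read 55.9 in sh-BCLAF1-L cells and 78.1 in sh-Luci cells, a difference of -0.48. That knockdown value lay below the detection intensity. Of the 3 GDF15 probe sets 1 was detected, and their differences ran from -0.48 to 0.20. Each of the 2 metalloproteinases rested on 1 probe set.

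**Figure D3:**
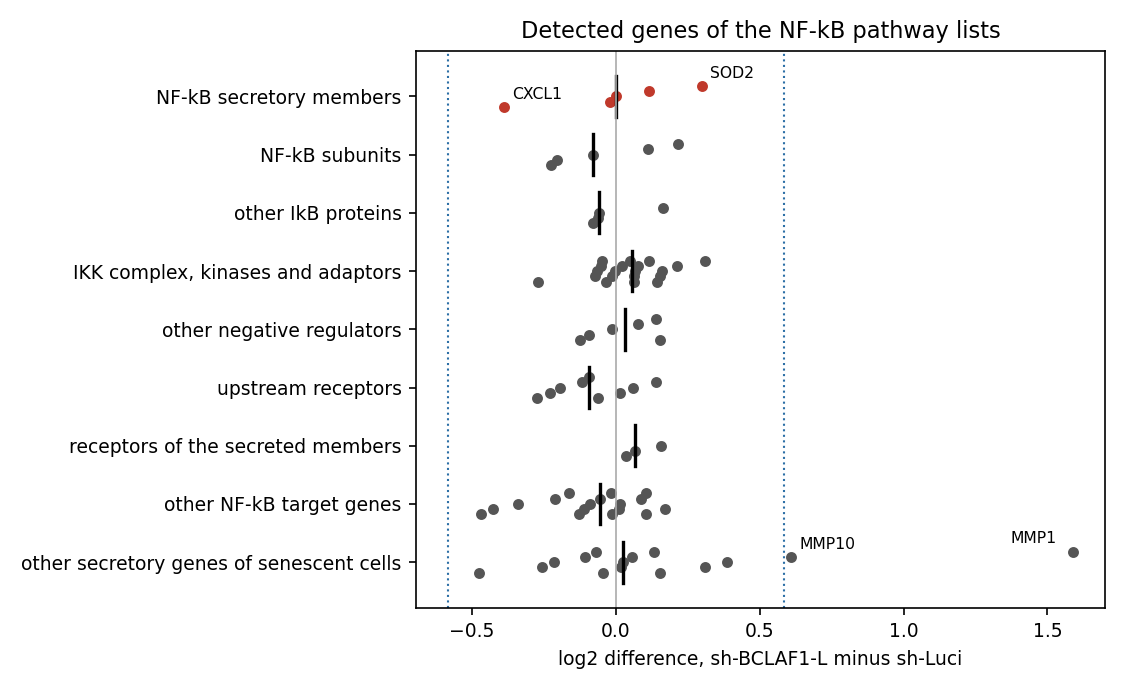
Log2 difference (sh-BCLAF1-L minus sh-Luci) of each detected gene, by list, with the members on the top row. Vertical bars are list medians and dotted lines mark 1.5-fold. Only MMP1 and MMP10 lie past a dotted line, and the list medians run from -0.094 to 0.066.

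Detected genes whose promoter held the consensus motif were also described as a set, chosen after the member values were seen. Of 1024 such genes, 57.4% were higher in the knockdown, with a median of 0.025, 4 at least 1.5-fold higher and 1 at least 1.5-fold lower. Among the 66 detected genes with GGAATTTCC, 62.1% were higher, with a median of 0.058 and none at 1.5-fold. The sets with the consensus motif and with GGAATTTCC overlap and include members such as CXCL1. Of 868 detected genes with TGANTCA, 55.0% were higher, with a median of 0.019, 5 at least 1.5-fold higher and 1 at least 1.5-fold lower. The 11590 detected genes with a promoter in the table had 55.1% higher and a median of 0.019, with 44 at least 1.5-fold higher and 22 at least 1.5-fold lower.

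BCLAF1 was lower in the knockdown on each of its 6 probe sets, which are assigned by gene symbol, so whether they read the L form is unknown. The brightest BCLAF1 probe set read 945 in sh-BCLAF1-L cells and 2505 in sh-Luci cells. The differences of all 6 ran from -1.57 to -0.51, and the smallest, 1.43-fold lower, did not reach 1.5-fold. Median intensities over all probe sets were 84.5 for sh-BCLAF1-L and 82.7 for sh-Luci. The ratio of 3′ to 5′ control probe sets for ACTB was 3.81 for sh-BCLAF1-L and 3.41 for sh-Luci. For GAPDH it was 1.49 for sh-BCLAF1-L and 1.38 for sh-Luci, and the 18 biotin spike-in probe sets differed by 0.05 to 0.33. The part of these in the member differences was not tested. Of 6 epithelial markers 4 were detected, whereas KRT19 and CDH1 lay below detection. EPCAM read 472 in sh-BCLAF1-L cells and 477 in sh-Luci cells. KRT18 read 674 in sh-BCLAF1-L cells and 979 in sh-Luci cells, a difference of -0.54 that was larger than that of any detected member. Of 7 measured blood cell markers, which include cells that make these chemokines, 2 were detected, and PTPRC, CD14, LYZ, CD163 and TYROBP were not. Of the detected ones, ITGAM read 79.1 in sh-BCLAF1-L cells and 78.9 in sh-Luci cells, and CSF1R read 75.9 in sh-BCLAF1-L cells and 93.2 in sh-Luci cells. The summed intensity of all 7 blood cell markers was 545 in sh-BCLAF1-L cells and 558 in sh-Luci cells. Of 7 fibroblast markers 4 were detected, with COL1A1 at 397 in sh-BCLAF1-L cells and 355 in sh-Luci cells. Of 5 endothelial markers 2 were detected, with VWF at 194 in sh-BCLAF1-L cells and 177 in sh-Luci cells.

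Member differences were also computed with other processing. CXCL2, CXCL3, CCL20, IL6 and SOD2 stayed positive and CXCL1 and TNFAIP3 negative in each setting run, and no member passed 1.5-fold in any. These signs were largely fixed in advance. A pseudocount cannot turn the sign of a probe set's difference, and a filter leaves the difference as it is. CXCL1, CXCL3, CCL20, IL6 and SOD2 had 1 probe set each, so only centring could have turned them. No setting used the probe sets that SOD2 shares with SOD2-OT1. CXCL8 differed by 0.14 with the median over its probe sets. Without _s_at and _x_at probe sets, whose probes can match several transcripts, NFKBIA was 0.19 and CXCL2 was 0.41, with CXCL2 then read from an undetected probe set. TNFAIP3 and CXCL8 had no probe set left in that setting. CCL20 was 0.21 and IL6 0.33 with a pseudocount of 32, which weights dim values less.

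**Figure D4:**
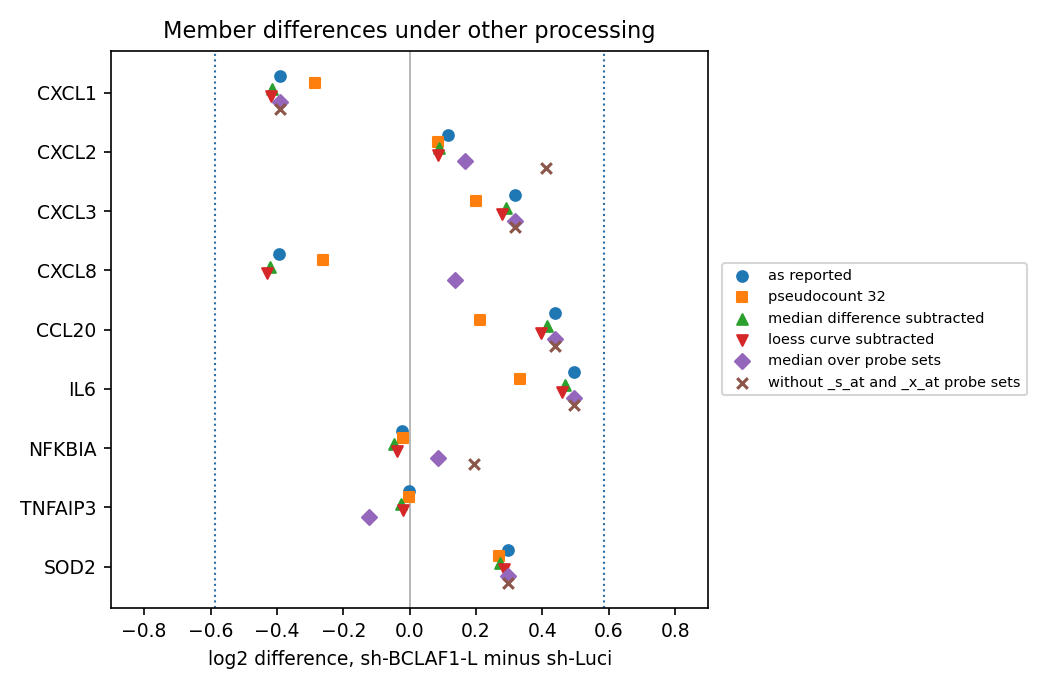
Log2 difference (sh-BCLAF1-L minus sh-Luci) of each measured member under the reported processing and 5 alternatives, with dotted lines at 1.5-fold. CXCL8 and NFKBIA have symbols on both sides of 0, and the other 7 genes stay on 1 side of it.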

How the data were processed

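RNA of 2 RKO cultures was measured on 1 array each. The values deposited by the authors are intensities on a linear scale, 1 per probe set, and the submitters' processing notes name RMA, which subtracts background, equalises arrays and summarises probes. Its program, version and final scaling are not stated in the labels, and background left in dim probe sets would compress their differences. Intensities ran from 1 to 16650 for sh-BCLAF1-L and from 1 to 17349 for sh-Luci. No detection calls were used, and the number of arrays limits the precision.

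Probe sets were named from the platform annotation (41097 with 1 symbol, 1801 with several, 11777 with none). For those with 1 symbol, the RefSeq symbol was looked up by Entrez identifier. It was found and used for 41043, whether or not it differed from the platform symbol. Values were transformed as log2(intensity + 1) in Python 3.11.15 with pandas 2.3.3. Probe sets of the same gene differed with an SD of 0.16 over 6752 genes, which does not cover the spread between cultures. The procedure was also run on simulated data whose noise had this same SD, 0.16, at every intensity. Undetected probe sets of the data had an SD of 0.29, so that run does not represent them. Named genes were all members, BCLAF1, the NF-kB subunits and up to 3 detected genes with the largest differences of each other list; marker genes are named as a check. Members and lists were chosen with earlier results of these data known.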

Additional observations from a re-analysis of the deposited data

How the results depend on the processing

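No paired analysis was possible because 1 array stood for each hairpin, which also left no replicate to drop. The count of members past 1.5-fold was 0 in each direction under every other filter, centring, pseudocount and probe set choice run and at 2-fold, and at the lowest threshold tried (0.32 on the log2 scale) it was 1 lower, CXCL1. The median of the detected members was 0.19 without _s_at and _x_at probe sets, over 3 instead of 5 genes, and that of the NF-kB subunits was 0.11. Over all detected genes, 63 were higher and 29 lower at 1.5-fold. These counts were 32 and 13 with a pseudocount of 32, 37 higher with the median over probe sets, 34 higher with the filter moved to the 60th percentile, and 235 and 117 without a filter. They were 54 and 41 after subtraction of the median difference of all probe sets, 0.026. A filter on the brighter array, chosen after seeing the data, counted 7 members as detected and none past 1.5-fold. Of the 9 measured members, the 4 below detection have values near background and no replicate, so the precision of their differences is unknown.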
